A study of Arabidopsis thaliana with 20 samples.

Results

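The grafts compared here differed in which organ lacked brassinosteroid synthesis: WT/cpd plants had a wild-type shoot on a cpd root, and cpd/WT plants had a cpd shoot on a wild-type root. All libraries of both combinations were taken by their labels, 10 of the 20 libraries of the series, and 20862 genes were tested of 32833 gene codes counted. RNA was sequenced from whole roots of Arabidopsis thaliana. Wild type was Col-0, and cpd plants carry a mutation in CPD, a brassinosteroid synthesis gene, whose allele the labels do not give. Groups are named shoot first, and each of WT/cpd, cpd/WT, cpd/cpd and WT/WT had 5 replicates, each a pool of 3 roots. Only root tissue was sequenced, so the shoot's own transcripts were not measured.

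Because shoot and root genotype both change between WT/cpd and cpd/WT, a fold change between them is the effect of the cpd root minus the effect of the cpd shoot. A gene moved equally by either organ gives no difference. The whole grafts, cpd/cpd against WT/WT, share no library with the reciprocal pair and were set beside it. If the sign is the same in both contrasts, the cpd root moved the gene further than the cpd shoot in that direction, averaged over the partner organ; if it is opposite, the cpd shoot did. Neither sign says that the other organ had no effect. Titles of the other 3 combinations call the plants grafted and those of cpd/cpd do not, so in that group grafting and genotype cannot be told apart. The labels do not say whether replicates came from separate plates or days, so the p-values cover variation among these root pools, which may be technical. In such bulk samples, fewer cells of a type and less RNA per cell cannot be told apart.

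Brassinosteroids are plant steroid hormones made from sterols by reductases and cytochrome P450 enzymes, among them DET2, DWF4, CPD, ROT3 and BR6OX2. The hormone is perceived at the cell surface by the receptor kinase BRI1, which through the kinase BIN2 frees the transcription factors BZR1 and BES1. These factors repress CPD, DWF4 and other synthesis genes, so a deficient tissue is known to raise its remaining synthesis enzymes. In roots the hormone is known for control of cell elongation, meristem size and vascular development.

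Library totals ran from 13417029 to 29662209 counts in WT/cpd and from 22040458 to 28857374 in cpd/WT. The WT/cpd libraries varied more than those of cpd/WT. In a principal component analysis of the 10 libraries the first component held 31.5% of the variance. WT/cpd replicate 1, the shallowest library, lay at -57.46 on it and WT/cpd replicate 2 at 33.42, while the cpd/WT libraries lay between 7.2 and 29.37. Some of the results that rest on those WT/cpd libraries are given without them as well. Nuclear photosynthesis genes, markers of shoot tissue, took 0.209% to 0.427% of counts in WT/cpd and 0.258% to 0.456% in cpd/WT. Markers of endodermis, root hair, meristem, xylem and phloem were all present, with none at 0 in all libraries.

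Between the reciprocal grafts 931 genes differed at an adjusted p under 0.05 (called hereafter), 4.46% of those tested. Of these, 432 were higher in WT/cpd (2.07%) and 499 lower (2.39%). A change of at least 1 on the log2 scale was found for 158 of the higher and 89 of the lower genes, 1.18% of all tested. The median log2 fold change over all tested genes was 0.0028. Leaving out WT/cpd replicate 4 took the count of called genes to 618, and a fit of the 10 libraries by themselves took it to 531.

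Of the largest differences, those of CPD, RCI2B, MRD1 and AT4G04223 went with the genotype of the root. Genes named as largest rises or falls were picked among called genes whose groups did not overlap, a trait of 5.23% of all genes. For them, groups apart was a condition of choice and is no further support. CPD (AT5G05690, chr5:1702640-1706948, minus strand), the mutated gene, had 4.47, 4.46, 4.14, 2.68 and 4.23 counts per 1 M of the scaled library (CPM) in the WT/cpd libraries, against 44.4, 34.1, 39.2, 41.3 and 45.4 CPM in the cpd/WT libraries. All WT/cpd values were low and the groups did not overlap. CPD fell to 4.0 ± 0.751 CPM in WT/cpd, against 40.9 ± 4.54 CPM in cpd/WT (SD, n = 5 each; log2 fold change -3.36 ± 0.14 SE, adjusted p = 6.5e-12). It had 2.84 ± 0.63 CPM in cpd/cpd and 45.5 ± 4.93 CPM in WT/WT, so its level went with the genotype of the root in all 4 combinations.

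RCI2B (AT3G05890, chr3:1757440-1758807, minus strand), which encodes a small hydrophobic membrane protein induced by cold and salt, also went with the root. It had 101, 75.1, 70.3, 98 and 71 CPM in WT/cpd, against 1840, 1860, 1560, 1900 and 1810 CPM in cpd/WT. No library with a cpd root came near one with a WT root. RCI2B was 21.6-fold lower in WT/cpd (log2 fold change -4.43 ± 0.16, adjusted p = 2.5e-13), and averaged 94 CPM in cpd/cpd and 2030 CPM in WT/WT. Its tandem neighbour RCI2A (AT3G05880, chr3:1755497-1756924, minus strand), a member of the same protein family, had 335 ± 50.4 CPM in WT/cpd and 404 ± 14.2 CPM in cpd/WT and was not called, although its groups did not overlap (log2 fold change -0.27 ± 0.12, adjusted p = 0.24). Their copies are similar in sequence, so some reads may be shared between them. Of 5 tested RCI2 family genes, RCI2B alone was called, beside 4.46% of all genes.

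MRD1 (AT1G53480), named for lower expression in the methionine over-accumulating mutant mto1, had 0.447, 0.0428, 0.0345, 2.87 and 0.0999 CPM in WT/cpd, against 46.1, 48.3, 43.5, 46.3 and 47.3 CPM in cpd/WT. It was close to absent in all WT/cpd libraries except replicate 4, and the groups did not overlap. The log2 fold change was -6.04 ± 0.55 (adjusted p = 3.6e-06), and -8.57 without WT/cpd replicate 4. The noncoding RNA gene AT4G04223 ran the other way, with 16.6, 21.9, 22.2, 17 and 19.7 CPM in WT/cpd against 0.243, 0, 0, 0.118 and 0.455 CPM in cpd/WT. Its log2 fold change was 6.79 ± 0.41 (adjusted p = 4.1e-09), and 7.51 without cpd/WT replicate 5. MRD1 averaged 0.13 CPM in cpd/cpd and 53.9 CPM in WT/WT, and AT4G04223 18 CPM in cpd/cpd and 0.221 CPM in WT/WT. Loss of CPD and any other sequence difference between the lines cannot be told apart for these genes, since all cpd roots share both.

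The rest of the brassinosteroid pathway moved far less. Of 10 tested synthesis genes, 3 rose in WT/cpd (2.07% of all genes) and CPD fell. DWF4 (AT3G50660, chr3:18813949-18817405, minus strand), the C-22 hydroxylase that feeds CPD, had 42.7, 34.9, 41.4, 57.3 and 43.1 CPM in WT/cpd, against 13.7, 23.7, 17.1, 19.6 and 22.4 CPM in cpd/WT. Every WT/cpd library was above every cpd/WT library, and DWF4 was 2.27-fold higher (log2 fold change 1.19 ± 0.15, adjusted p = 0.00021). BR6OX2, which makes brassinolide in the last step, had 41.5 ± 11.6 CPM in WT/cpd and 19.3 ± 2.29 CPM in cpd/WT (2.16-fold, adjusted p = 0.00021). In WT/cpd replicate 4 it reached 62.1 CPM. CYP90D1, a C-23 hydroxylase, had 45.4 ± 6.77 CPM in WT/cpd and 33.1 ± 5.22 CPM in cpd/WT (1.37-fold, adjusted p = 0.019), with overlapping groups and a call lost in 5 of 19 alternatives.

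ROT3, the other C-23 hydroxylase, did not separate the grafts, at 50 ± 4.11 CPM in WT/cpd and 50.6 ± 5.35 CPM in cpd/WT (log2 fold change -0.02 ± 0.08, adjusted p = 0.94). It had 51.7 ± 3.56 CPM in cpd/cpd and 37.9 ± 1.85 CPM in WT/WT, so both reciprocal grafts lay at the level of the whole mutant graft. DWF4 and BR6OX2 differed from this: in cpd/WT they were at 19.3 CPM each, against 25.2 and 20.7 CPM in WT/WT. The log2 fold change of DET2, the steroid reductase upstream, was -0.06 ± 0.10 (adjusted p = 0.83). That of BR6OX1, an oxidase closely related to BR6OX2, was 0.59 ± 0.21 (adjusted p = 0.12). The sterol-stage genes DWF1, DWF5 and STE1 were not called either, at 0.19, 0.09 and -0.03 on the log2 scale.

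Of 6 tested inactivation genes 2 fell in WT/cpd (2.39% of all genes). CYP72C1, a P450 that lowers active hormone, had 18.5 ± 0.942 CPM in WT/cpd and 23.3 ± 2.83 CPM in cpd/WT (adjusted p = 0.04). BIA1, an acyltransferase of the same role, had 11.5 ± 1.96 CPM in WT/cpd and 16.3 ± 2.92 CPM in cpd/WT (adjusted p = 0.031). For each gene all WT/cpd libraries were below all cpd/WT libraries, but the call of CYP72C1 was lost in 10 and that of BIA1 in 7 of 19 alternatives. BAS1, the main hydroxylase of this kind, had 14.2 ± 2.49 CPM in WT/cpd and 15.6 ± 2.6 CPM in cpd/WT and was not called. None of 10 tested signalling genes was called by edgeR's quasi-likelihood test, and BRI1 came nearest, with 158 ± 14.1 CPM in WT/cpd and 125 ± 18.8 CPM in cpd/WT (log2 fold change 0.34 ± 0.10, adjusted p = 0.069). In this list 3 genes had an unadjusted p under 0.05, and DESeq2 called 1.

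Upstream sequences of DWF4 and BR6OX2, the synthesis genes that rose most, are shown because BZR1 and BES1 are known to bind the brassinosteroid response element. The 250 bases before each annotated gene start were read from the TAIR10.1 assembly of RefSeq for 20786 tested genes. They were searched on both strands for CGTGTG and CGTGCG, either of which can overlap a G-box, CACGTG. A match would be in capitals, and the sequences run 5′ to 3′ along the gene's strand.
DWF4 (chr3:18817406-18817655, minus strand): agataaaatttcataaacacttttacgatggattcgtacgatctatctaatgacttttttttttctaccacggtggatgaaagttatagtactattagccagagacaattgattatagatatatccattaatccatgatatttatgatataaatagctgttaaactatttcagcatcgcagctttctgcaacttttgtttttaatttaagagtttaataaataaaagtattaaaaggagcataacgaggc
BR6OX2 (chr3:11810476-11810725, plus strand): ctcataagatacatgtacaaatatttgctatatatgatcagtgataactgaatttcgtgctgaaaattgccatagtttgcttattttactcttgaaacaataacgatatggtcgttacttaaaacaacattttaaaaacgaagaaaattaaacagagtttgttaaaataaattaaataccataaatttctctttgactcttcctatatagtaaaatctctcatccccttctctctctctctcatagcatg
DWF4 and BR6OX2 held none in this window. None of the 10 synthesis genes had a match within these 250 bases, which says nothing of sites further away. The element was found before 7.02% of tested genes, 9.72% of genes higher in WT/cpd and 7.62% of genes lower in WT/cpd. It was found before 16.7% of the genes called with the same sign in the whole grafts (19 of 114), and before 8.33% of those called with opposite signs (7 of 84).

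**Figure D1:**
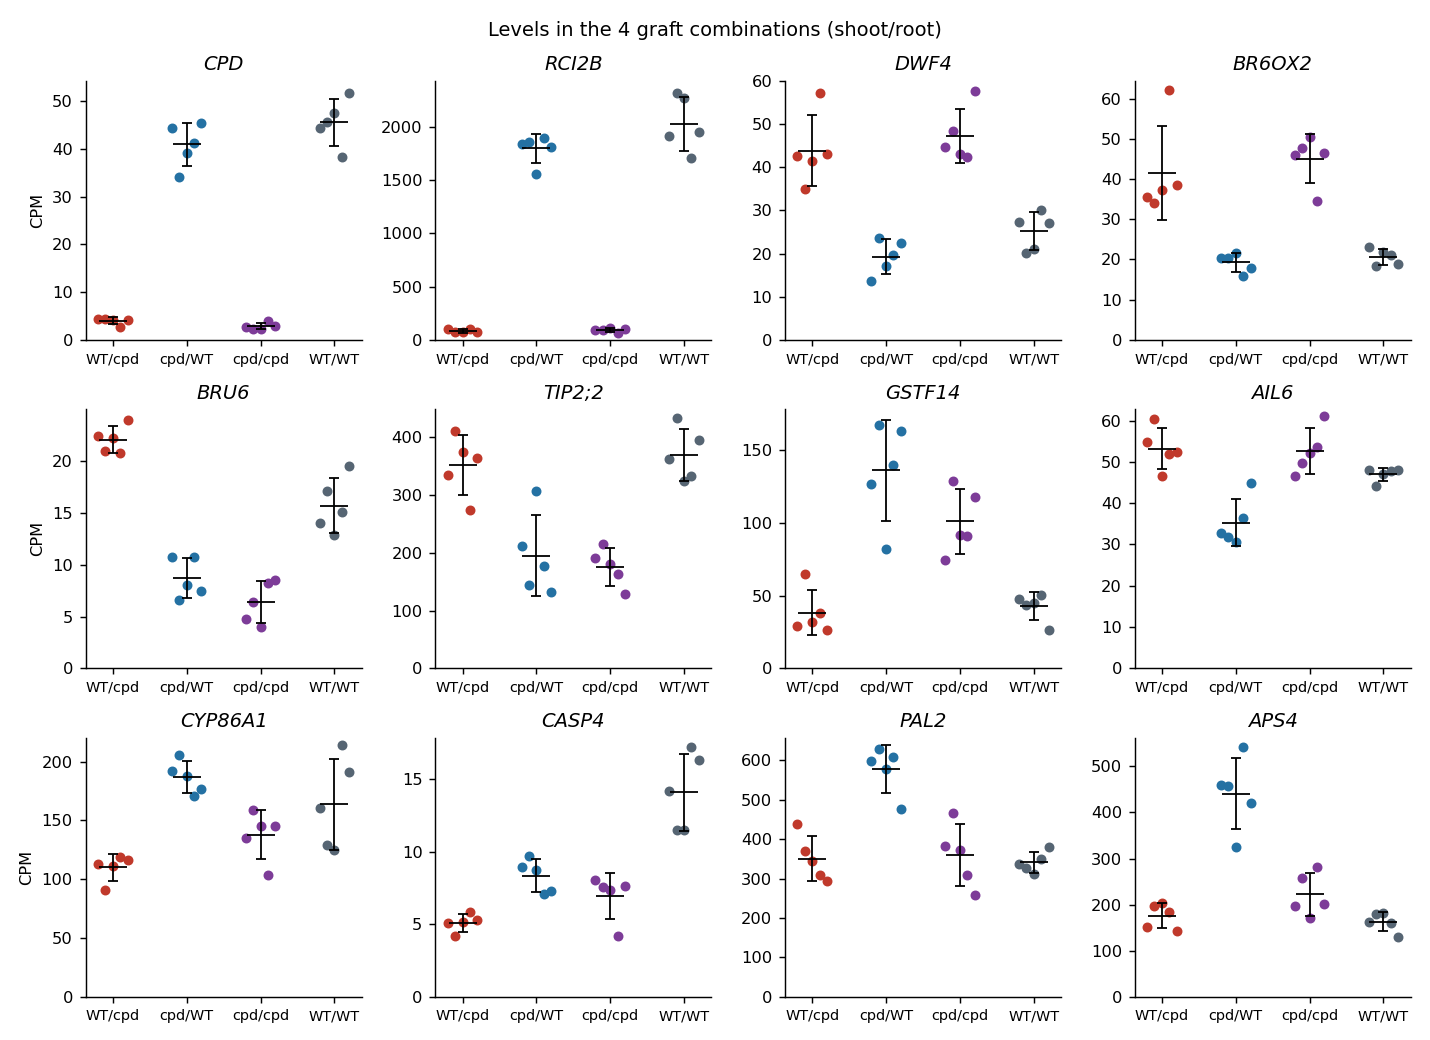
Levels (CPM, linear axes from 0) of 12 genes in each library, by graft combination; points are the 5 replicates, the bar is the mean and the whiskers 1 SD. CPD and RCI2B are low wherever the root is cpd, the means of BRU6, TIP2;2 and GSTF14 divide by the shoot, and those of PAL2 and APS4 are highest in cpd/WT.

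Of the 931 called genes, 198 were also called between the whole grafts, where 1326 genes (6.36%) differed; 733 were not. Of the shared genes, 114 had the same sign in both contrasts, 12.2% of the reciprocal list and 8.6% of the whole-graft list. Read as genotype effects, that of the cpd root exceeded that of the cpd shoot for these genes, averaged over the partner organ. This reading takes the cpd/cpd plants as grafted like the others, which their titles do not state. The other 84 had opposite signs, 9.02% and 6.33% of the lists. A shared sign did not mean that the cpd shoot left a gene at its WT/WT level: AT1G65570, with the same sign in both contrasts, averaged 17.9 CPM in WT/cpd, 7.03 CPM in cpd/WT, 10 CPM in cpd/cpd and 2.24 CPM in WT/WT. Genes called in both made up 0.949% of all tested. Counting signs with or without a call, 51.2% of the 931 genes had the same sign in the whole grafts, beside 46.5% of all tested genes. The opposite-sign count was 54 without WT/cpd replicate 5, and a fit of each pair of groups by itself gave 65 with the same sign and 39 with opposite signs.

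**Figure D2:**
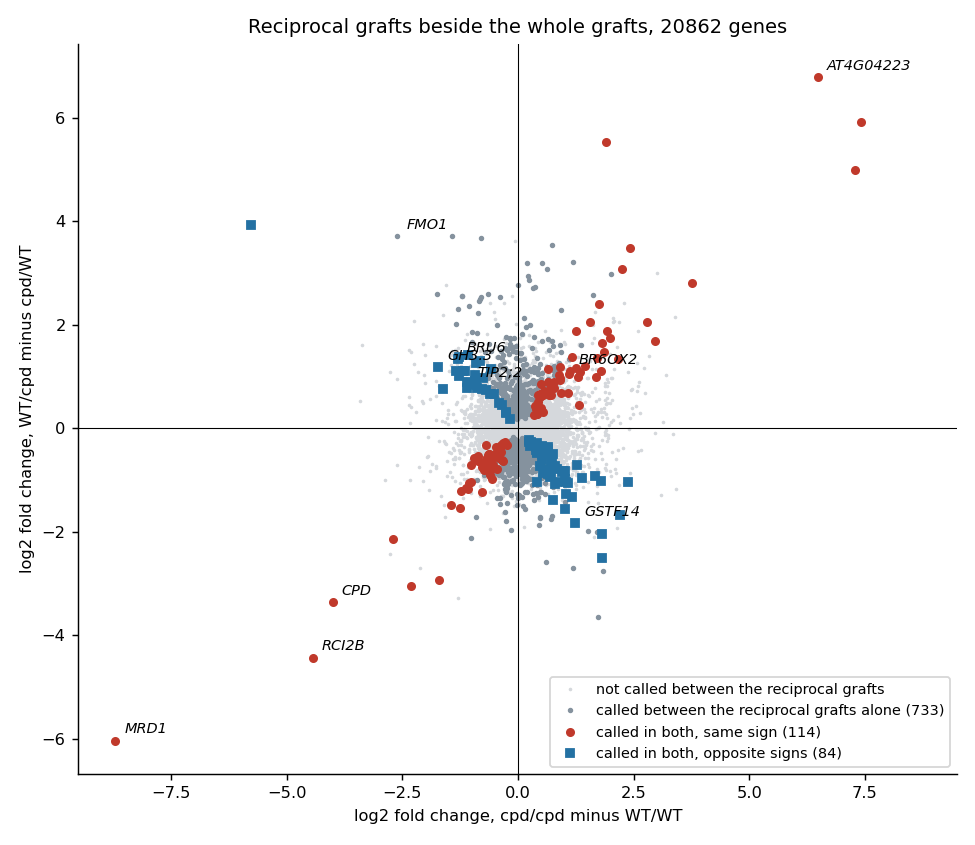
Log2 fold change of WT/cpd minus cpd/WT (vertical) against that of cpd/cpd minus WT/WT (horizontal) for 20862 genes, with called genes coloured. The 114 red circles had the same sign in both contrasts and include RCI2B, CPD, MRD1 and AT4G04223; the 84 blue squares had opposite signs and include BRU6, GSTF14 and TIP2;2.

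The 5 largest changes with opposite signs in the whole grafts, by the rule for named genes, were those of AT2G38600, BRU6, GSTF14, AAP6 and AT4G02850. BRU6 (AT4G37390), a GH3 enzyme of the family that conjugates auxin to amino acids, had 22.4, 21, 22.2, 20.8 and 24 CPM in WT/cpd, against 10.8, 6.57, 8.09, 10.8 and 7.49 CPM in cpd/WT. The groups did not overlap, as that rule required, and BRU6 was 2.52-fold higher in WT/cpd (log2 fold change 1.33 ± 0.18, adjusted p = 0.00029). It averaged 6.4 CPM in cpd/cpd and 15.7 CPM in WT/WT, so both grafts with a cpd shoot were below both with a WT shoot in mean. GSTF14, a phi-class glutathione transferase, showed the reverse, with 29.3, 64.7, 32, 38.3 and 26.3 CPM in WT/cpd against 127, 167, 81.9, 140 and 163 CPM in cpd/WT. It was 3.56-fold lower in WT/cpd (adjusted p = 0.00029), with 101 ± 22.1 CPM in cpd/cpd and 42.6 ± 9.62 CPM in WT/WT. The acid phosphatase family gene AT2G38600, with 13.1 ± 5.01 CPM in WT/cpd and 5.13 ± 1.54 CPM in cpd/WT, and the amino acid permease AAP6, with 21.7 ± 5.17 CPM in WT/cpd and 9.85 ± 2.1 CPM in cpd/WT, rose in WT/cpd (adjusted p = 0.0019 and 0.00099). AT4G02850, a gene of the PhzC/PhzF family, fell to 7.04 ± 1.7 CPM in WT/cpd, against 14.6 ± 3.65 CPM in cpd/WT (adjusted p = 0.018).

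Among 14 tested auxin response genes 4 rose in WT/cpd and none fell, beside 2.07% and 2.39% of all genes, with a median log2 fold change of 0.265 over the list. All 4 were GH3 genes. GH3.3 had 8.31 ± 2.27 CPM in WT/cpd and 3.64 ± 1.21 CPM in cpd/WT (2.28-fold, adjusted p = 0.018). WES1 (GH3.5) had 44.7, 41.7, 43.3, 41.3 and 43.4 CPM in WT/cpd, against 23.4, 21.2, 24, 27.1 and 31.1 CPM in cpd/WT, and was 1.69-fold higher (adjusted p = 0.0019). GH3.1 (log2 fold change 0.79, adjusted p = 0.036) and DFL1 (0.79, adjusted p = 0.018) completed the set. The Aux/IAA repressors and the lateral root regulators of the LBD family were not called, with LBD16 at a log2 fold change of 0.63 (adjusted p = 0.079). Between the whole grafts 5 of the 14 genes fell in cpd/cpd (2.63% of all genes) and none rose. These were GH3.1, GH3.3, IAA19, LBD16 and LBD29, so only part of the set was the same. WES1 and DFL1 were not called there (log2 fold change -0.39 and 0.09, adjusted p = 0.074 and 0.82).

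Of the water channel genes tested, 1 of 6 vacuolar and 1 of 13 plasma membrane aquaporins were called, beside 4.46% of all genes. TIP2;2, a vacuolar aquaporin, had 335, 412, 374, 274 and 365 CPM in WT/cpd, against 212, 145, 307, 178 and 133 CPM in cpd/WT. The groups overlapped through 1 cpd/WT library, and TIP2;2 was 1.81-fold higher in WT/cpd (adjusted p = 0.012). It had 176 ± 32.8 CPM in cpd/cpd and 370 ± 44.7 CPM in WT/WT. Its relative TIP2;3 had 109 ± 25.2 CPM in WT/cpd and 55.2 ± 29.5 CPM in cpd/WT and was not called (adjusted p = 0.055). The plasma membrane aquaporin RD28 (PIP2;3) had 183 ± 41.4 CPM in WT/cpd and 116 ± 14.7 CPM in cpd/WT (adjusted p = 0.031). RD28 is nearly identical to PIP2;2, so its reads are uncertain, and its call was lost in 9 of 19 alternatives.

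Part of the endodermal barrier genes were lower in WT/cpd. Suberin is a waxy polymer laid on endodermal walls, and the Casparian strip is the lignin seal between these cells. Of 16 tested suberin genes 8 fell in WT/cpd (2.39% of all genes) and none rose, with a median log2 fold change of -0.403; 9 of the 16 had groups that did not overlap, beside 5.23% of all genes. CYP86A1, a fatty acid hydroxylase of suberin, had 113, 90.6, 111, 119 and 116 CPM in WT/cpd, against 192, 206, 188, 171 and 177 CPM in cpd/WT. It was 1.7-fold lower in WT/cpd (adjusted p = 0.0027). The exporter ABCG20 had 29.4, 25.5, 28.5, 26.5 and 28.4 CPM in WT/cpd, against 43.4, 42.7, 46.5, 41.6 and 39 CPM in cpd/WT (adjusted p = 0.006). The acyltransferase GPAT5 had 24.5 ± 4.48 CPM in WT/cpd and 37.5 ± 4.6 CPM in cpd/WT (adjusted p = 0.0092). Of the regulators, MYB53 fell by 0.76 (log2; adjusted p = 0.0094) and MYB93 by 0.52 (adjusted p = 0.014), and CYP86B1, FAR5 and ABCG2 also fell. MYB41 and FAR4 were not called, at 0.34 and 0.20 on the log2 scale.

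CYP86A1, ABCG20 and GPAT5 did not show this difference as a call between the whole grafts. CYP86A1 had 138 ± 20.7 CPM in cpd/cpd and 164 ± 38.7 CPM in WT/WT, and was not called between them (adjusted p = 0.28). ABCG20 had 33.4 ± 7.27 CPM in cpd/cpd and 31.7 ± 4.11 CPM in WT/WT (adjusted p = 0.75). For CYP86A1 and ABCG20 the 2 reciprocal grafts thus lay on either side of the whole grafts in their means. GPAT5 had 25.7 ± 4.28 CPM in cpd/cpd and 29.9 ± 2.9 CPM in WT/WT (adjusted p = 0.34). Its cpd/cpd mean was thus close to the 24.5 CPM of WT/cpd, and cpd/cpd was called below cpd/WT (adjusted p = 0.038). MYB93 and ABCG2 were lower in cpd/cpd than in WT/WT as well (log2 fold change -0.64 and -0.48, adjusted p = 0.0035 and 0.0053).

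Of 11 Casparian strip genes 3 fell in WT/cpd (2.39% of all genes). CASP4, a scaffold protein of the strip, had 5.07, 4.16, 5.14, 5.87 and 5.3 CPM in WT/cpd, against 8.92, 9.74, 8.76, 7.06 and 7.28 CPM in cpd/WT. The groups did not overlap, and CASP4 was 1.63-fold lower in WT/cpd (adjusted p = 0.017). CASP1, of the same scaffold family, was 1.7-fold lower (adjusted p = 0.018). CASP4 averaged 6.96 CPM in cpd/cpd and 14.1 CPM in WT/WT, so cpd/WT roots were also below the wild-type graft in mean. MYB36, the regulator that switches these genes on, had a log2 fold change of -0.07 ± 0.18 (adjusted p = 0.89). The summed Casparian list took 0.0371% to 0.0465% of counts in WT/cpd and 0.0427% to 0.0532% in cpd/WT. Whether a smaller share of endodermis took part in the suberin and Casparian differences was not tested.

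Some stem cell regulators of the root tip were higher in WT/cpd. Of 9 tested root meristem genes 4 rose (2.07% of all genes) and none fell, and the same count was obtained without any 1 of the 10 libraries. AIL6 (PLT3), a PLETHORA-family factor that maintains the stem cell niche, had 54.7, 60.3, 46.5, 52 and 52.5 CPM in WT/cpd, against 32.7, 31.9, 30.6, 36.3 and 44.9 CPM in cpd/WT. The groups did not overlap and AIL6 was 1.51-fold higher (log2 fold change 0.59 ± 0.09, adjusted p = 0.0012). Of the same family, BBM rose 1.74-fold (adjusted p = 0.0027) and PLT2 by 0.70 on the log2 scale (adjusted p = 0.0046). MYB56 (BRAVO), a repressor of quiescent centre division that brassinosteroid signalling is known to repress, had 14.6 ± 2 CPM in WT/cpd and 9.07 ± 1.34 CPM in cpd/WT (adjusted p = 0.0036). MYB56 had 15.6 ± 0.836 CPM in cpd/cpd and 7.33 ± 1.4 CPM in WT/WT, the pattern of the root genotype. AIL6 instead was lowest in cpd/WT, with 52.6 ± 5.48 CPM in cpd/cpd and 47 ± 1.62 CPM in WT/WT. PLT1, WOX5, SHR, SCR and JKD were not called, with log2 fold changes between -0.12 and 0.25. The summed list took 0.0193% to 0.022% of counts in WT/cpd and 0.0148% to 0.0174% in cpd/WT, and the part of meristem size in these differences was not tested. None of the 11 tested cell division genes was called by edgeR, with a list median of -0.12, 1 gene at an unadjusted p under 0.05 and 1 called by DESeq2.

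Some phosphate starvation genes were higher in WT/cpd, unevenly over its libraries. Of 15 tested members 3 rose and none fell, 2.07% of all genes being higher. The list's median log2 fold change was 1.165, beside 0.0028 for all genes, and 0.381 without WT/cpd replicate 1. PAP17, an acid phosphatase, had 110, 36.5, 73.7, 56 and 68.6 CPM in WT/cpd, against 29.2, 23.4, 27.4, 25.5 and 20.9 CPM in cpd/WT. Every WT/cpd library was above cpd/WT, and PAP17 was 2.72-fold higher (log2 fold change 1.44 ± 0.28, adjusted p = 0.0053). PHT1;4, a phosphate uptake transporter, had 102, 28.8, 52, 51.5 and 44.1 CPM in WT/cpd, against 21.5, 27.7, 23.6, 25.1 and 19.2 CPM in cpd/WT (2.37-fold, adjusted p = 0.0043). PAP17 averaged 22.9 CPM in cpd/cpd and 26.2 CPM in WT/WT, so WT/cpd stood apart from the other 3 combinations in mean.

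The sensor protein gene SPX3 rested on 1 library, with 14.2 CPM in WT/cpd replicate 1 and 0.3 to 0.967 CPM in the others, against 0.243 to 0.621 CPM in cpd/WT. Its log2 fold change of 3.21 (adjusted p = 0.048) became 0.99 (adjusted p = 0.38) without that library. WT/cpd replicate 1 was also the highest for SPX1, PS2, SQD2, MGDC, RNS1 and IPS1. Without it 2 members were called, PAP17 and PHT1;4, with log2 fold changes of 1.22 and 0.91. Without WT/cpd replicate 2, the lowest WT/cpd library for PAP17, PHT1;4 and SPX3, 6 were called. SPX3 holds the phosphate response element GNATATNC, known as the site of PHR1-type factors, at positions -213 and -90 from its gene start.
SPX3 (chr2:18606160-18606409, plus strand): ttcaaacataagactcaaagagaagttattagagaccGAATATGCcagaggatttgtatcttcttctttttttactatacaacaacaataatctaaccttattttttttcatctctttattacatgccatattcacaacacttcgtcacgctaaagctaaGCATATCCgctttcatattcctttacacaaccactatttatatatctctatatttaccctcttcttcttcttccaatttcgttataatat
Capitals mark the matches, on either strand. The element was found before 4 of the 15 list genes and 5.47% of all tested genes; PAP17 and PHT1;4 had none in this window.

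The immune genes PBS3 and FMO1 were high in 4 of 5 WT/cpd libraries. Of 12 tested genes for salicylate and pipecolate signalling 3 rose in WT/cpd and none fell, beside 2.07% and 2.39% of all genes. PBS3, which conjugates the salicylate precursor, had 24.8, 0.3, 6.25, 11.2 and 18.1 CPM in WT/cpd, against 2.88, 1.28, 0.407, 1.1 and 0.745 CPM in cpd/WT. WT/cpd replicate 2 was the lowest of all 10 libraries and the other 4 were above all cpd/WT libraries. FMO1, which makes N-hydroxypipecolate, had 12.5, 0.129, 5.52, 8.07 and 22.5 CPM in WT/cpd, against 0.486, 0.473, 0.452, 1.76 and 0.496 CPM in cpd/WT. The log2 fold changes were 3.20 ± 0.73 for PBS3 and 3.71 ± 0.77 for FMO1 (adjusted p = 0.016 and 0.0089), and ALD1, the aminotransferase before FMO1, rose by 2.30 (adjusted p = 0.015). FMO1 stood at 4.34 without cpd/WT replicate 4. Without WT/cpd replicate 2, 7 of the 12 genes were called higher, and a fit of the 10 libraries by themselves called none.

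GSTF6, a glutathione transferase of camalexin synthesis, followed the same libraries, with 204, 31.8, 54.8, 142 and 156 CPM in WT/cpd and 33.8 to 51.4 CPM in cpd/WT (adjusted p = 0.023). The call of GSTF6 was lost in 6 of 19 alternatives (highest adjusted p = 0.12): without WT/cpd replicate 1, 4 or 5, without cpd/WT replicate 2 or 3, and in a fit of the 10 libraries by themselves. MYB122, a regulator of indole glucosinolates, had 4.18 ± 1.78 CPM in WT/cpd and 1.48 ± 0.499 CPM in cpd/WT (adjusted p = 0.01). The indole glucosinolate enzymes CYP83B1 and CYP79B3 fell instead, CYP83B1 by 0.48 (log2; adjusted p = 0.019) and CYP79B3 by 0.50 (adjusted p = 0.044), and CYP79B3 lost its call in 10 of 19 alternatives. The salicylate regulators EDS1, PAD4 and NPR1 were not called.

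**Figure D3:**
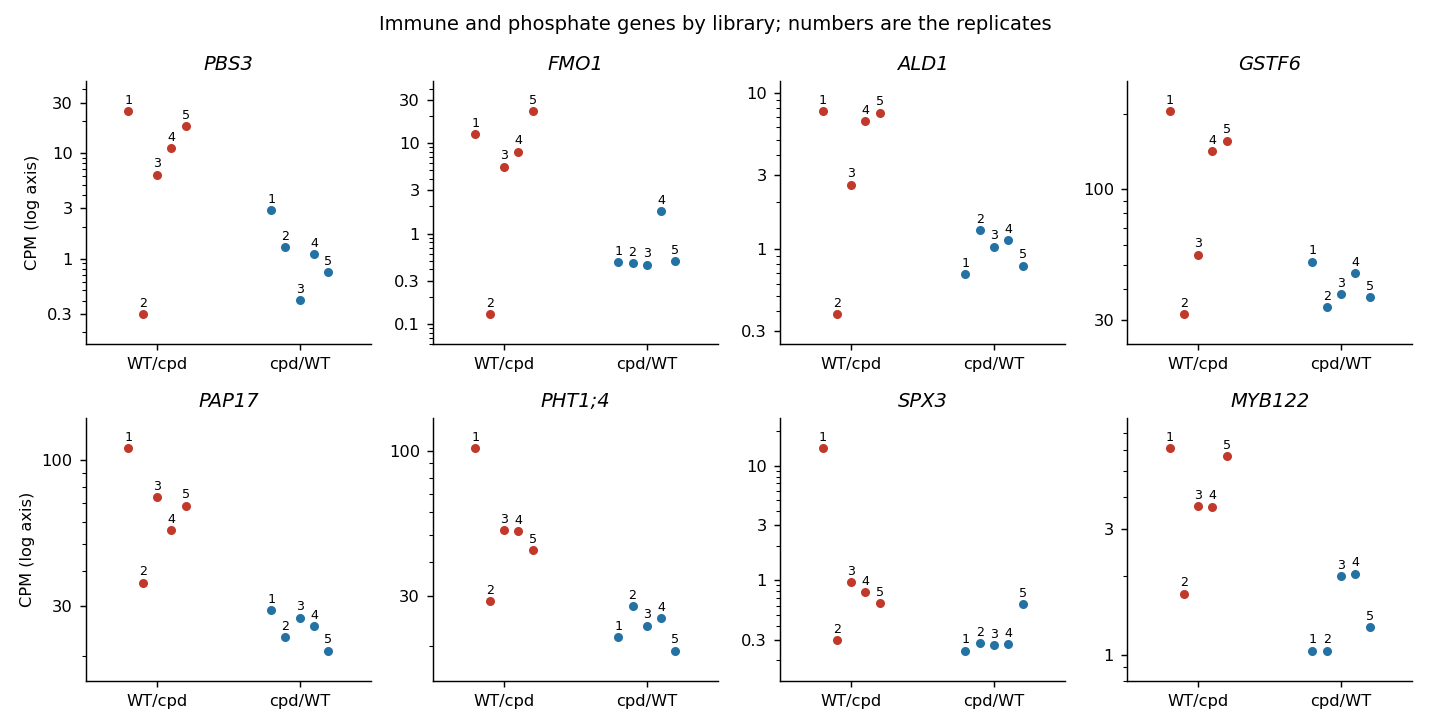
Levels (CPM, log axes) of 8 immune and phosphate genes in each WT/cpd and cpd/WT library; the number beside a point is its replicate. WT/cpd replicate 1 is the highest WT/cpd library for PBS3, ALD1, GSTF6, PAP17, PHT1;4, SPX3 and MYB122, and WT/cpd replicate 2 is the lowest WT/cpd library for all 8.

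Several genes were highest in cpd/WT. APS4, an ATP sulfurylase that activates sulfate, had 152, 198, 203, 183 and 142 CPM in WT/cpd, against 460, 457, 326, 541 and 421 CPM in cpd/WT. The groups did not overlap, as the rule for the largest falls required. APS4 was 2.51-fold lower in WT/cpd (log2 fold change -1.33 ± 0.15, adjusted p = 3.5e-05). It had 222 ± 45.8 CPM in cpd/cpd and 163 ± 20.7 CPM in WT/WT. PAL2, a phenylalanine ammonia-lyase at the entry to lignin and flavonoids, had 438, 369, 344, 310 and 293 CPM in WT/cpd, against 598, 630, 577, 609 and 477 CPM in cpd/WT (adjusted p = 0.0037). It had 359 ± 78.5 CPM in cpd/cpd and 341 ± 25.9 CPM in WT/WT. PAL4 fell too, but its level went with the root, at 57.2 ± 2.5 CPM in WT/cpd and 75.1 ± 7.54 CPM in cpd/WT (adjusted p = 0.019), with 56.6 CPM in cpd/cpd and 74.2 CPM in WT/WT. PAL2 and PAL4 were the 2 called of 14 monolignol genes, beside 4.46% of all genes. Chalcone synthase, TT4, had 1470 ± 216 CPM in WT/cpd and 2090 ± 117 CPM in cpd/WT (adjusted p = 0.041), with a call lost in 8 of 19 alternatives.

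Among nitrate genes, WR3 (NRT3.1), the partner protein of high-affinity nitrate transporters, had 28.6 ± 3.52 CPM in WT/cpd and 42.8 ± 11.9 CPM in cpd/WT (adjusted p = 0.034, call lost in 8 of 19 alternatives). UPM1, a methyltransferase for the sirohaem of nitrite reductase, had 119 ± 9.25 CPM in WT/cpd and 160 ± 7.34 CPM in cpd/WT (adjusted p = 0.021). The other 5 of 7 tested nitrate genes were not called, where 4.46% of all genes were.

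The abscisic acid receptor genes PYL5 and PYL6 fell in WT/cpd. PYL6 had 7.81 CPM in WT/cpd and 24.4 CPM in cpd/WT, 3.08-fold lower (adjusted p = 0.017). Its groups did not overlap, as the rule for the largest falls required. PYL5 had 31.5 ± 4.25 CPM in WT/cpd and 52.3 ± 5.34 CPM in cpd/WT (adjusted p = 0.006). HAB1, a phosphatase that these receptors inhibit, rose by 0.32 on the log2 scale (adjusted p = 0.027, call lost in 8 of 19 alternatives). Of the 16 genes of this list, the other 13 were not called, where 4.46% of all genes were.

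Of the remaining largest changes, HKT1, a sodium transporter of the xylem, had 23.8 ± 5.84 CPM in WT/cpd and 7.86 ± 3.63 CPM in cpd/WT (adjusted p = 0.0089, call lost in 1 of 19 alternatives). CYP78A5, a P450 that promotes organ growth, had 4.07 ± 1.3 CPM in WT/cpd and 11.3 ± 1.91 CPM in cpd/WT (2.82-fold lower, adjusted p = 0.00028). XTH20, a xyloglucan wall enzyme, was 1.96-fold lower in WT/cpd (adjusted p = 0.01, call lost in 1 of 19 alternatives). The transaminase family gene AT4G23590, the P450 gene CYP705A12, the pectin lyase-like gene AT1G65570 and the MATE transporter gene AT1G71140 rose by 2.06, 1.73, 1.34 and 1.38 on the log2 scale. The cupin gene AT5G38940, MSRB6 (a methionine sulfoxide reductase) and GAT1_2.1 (a glutamine amidotransferase-like gene) fell by 1.87, 1.45 and 1.57, and GAT1_2.1 lost its call in 12 of 19 alternatives. The cytokinin response regulator ARR3 rose 2.14-fold (adjusted p = 0.019, call lost in 1 of 19 alternatives). CKX4, which degrades cytokinin, fell by 0.62 (adjusted p = 0.025, call lost in 5 of 19 alternatives). The starch synthase SS3 rose 1.42-fold (adjusted p = 0.017, call lost in 2 of 19 alternatives). The vacuolar sugar transporter SWEET16 fell by 0.60 (adjusted p = 0.023, call lost in 5 of 19 alternatives). The methylthioalkylmalate synthase family gene IMS2 fell by 0.79 (adjusted p = 0.027, call lost in 7 of 19 alternatives).

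Groups that separated the whole grafts did not all separate the reciprocal ones. Of 22 iron deficiency genes 10 fell in cpd/cpd against WT/WT (2.63% of all genes). Between WT/cpd and cpd/WT edgeR called none of them, 2 had an unadjusted p under 0.05 and the list's median log2 fold change was 0.068. BHLH101, a regulator of this response, had 4.83 ± 1.11 CPM in WT/cpd and 4.39 ± 0.253 CPM in cpd/WT, with 3.69 CPM in cpd/cpd and 11.5 CPM in WT/WT. Of 14 starch breakdown genes 9 rose between the whole grafts (3.72% of all genes) and none was called between the reciprocal grafts, where 1 had an unadjusted p under 0.05. Whole-graft and reciprocal calls were 13 and 0 of 26 for photosynthesis, 6 and 0 of 14 for root hair genes and 6 and 0 of 14 for secondary wall genes. Over all genes the shares called were 6.36% and 4.46%. Unadjusted p-values under 0.05 between the reciprocal grafts numbered 3, 1 and 0 in those lists. DESeq2 called 1 photosynthesis gene and none of the iron, starch breakdown, root hair or secondary wall genes. A missing call does not show equal levels, and the test of the difference between these contrasts was not made. In all, 52 of 492 distinct list genes were called (10.6%), in 23 of 46 lists, beside 4.46% of all genes. The lists were chosen with earlier results of these data known, so the 2 shares are not a test of enrichment.

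**Figure D4:**
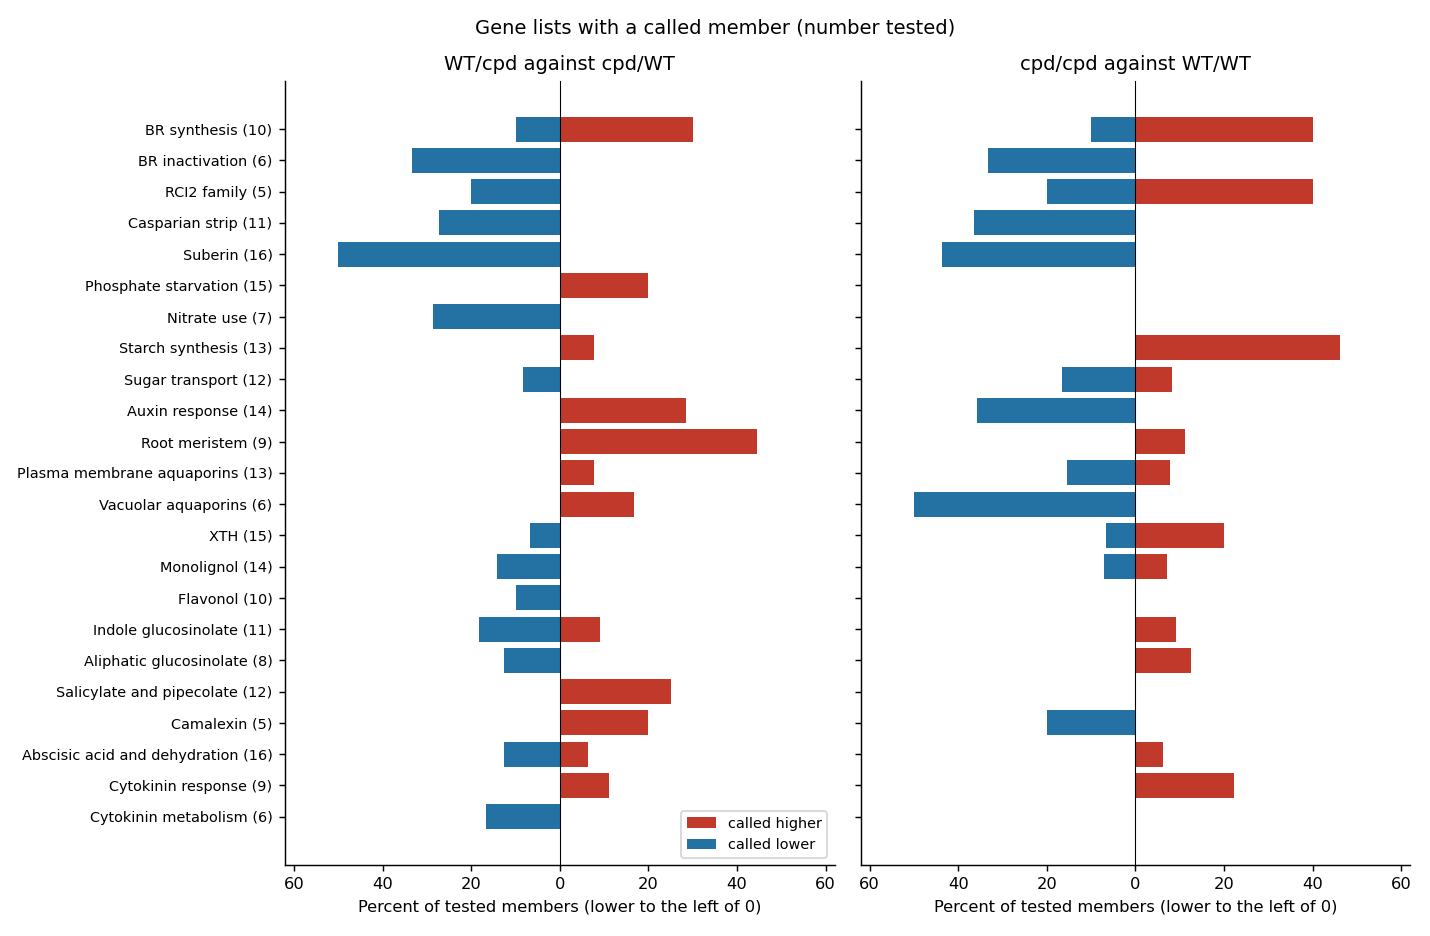
Percent of the tested members called higher (red, right of 0) or lower (blue, left of 0) for the 23 lists with a called member between the reciprocal grafts; the left panel gives WT/cpd against cpd/WT and the right panel cpd/cpd against WT/WT. Suberin has 8 of 16 members lower on the left. Auxin response has members called higher on the left and lower on the right, which are only in part the same genes.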

How the data were processed

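Roots gave total RNA by RNeasy Plant Mini Kit, and the library kit was NEBNext Ultra II Directional, per the labels' protocols. STAR and TAIR10 are named in the submitters' processing notes; how reads were counted, and with which strand setting, is not given in the sources used here, so overlapping and antisense genes are uncertain. Counts as deposited by the authors were whole and not normalized, for 32833 gene codes, of which 32548 were in the RefSeq table of TAIR10.1 used for names and positions. All 20 libraries were fitted with edgeR 4.0.16 in R 4.3.3: default filter by group, TMM scaling, 1 mean per group, robust quasi-likelihood F test with 16 residual degrees of freedom, Benjamini-Hochberg adjustment over 20862 genes. Every adjusted p in the text is from this test unless another is named. CPM are per 1 M counts of the scaled library. The procedure was tested on simulated data.

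The comparison, the 46 lists (513 entries, 1 left out for another symbol at its code) and the tests were chosen with earlier results of these data known. Genes named were 12 fixed genes, the 10 largest rises and the 10 largest falls (called, mean log2 CPM of at least 3, groups apart), up to 3 called members per list, and 5 each with the same and with opposite signs in the whole grafts; others were named after their values were seen. A few items chosen by this rule are not reported here. Alternatives were DESeq2 1.42.0 (its size factors, and its Wald test), other filters, a replicate block, the compared groups alone, no robust estimation, organelle genes left out, each library left out, and both replicates 2 left out.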

Additional observations from a re-analysis of the deposited data

Results flagged for a closer look

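Of 136 groups of 5 values checked, 14 held a library far from the other 4. The rule would flag about 1 in 20 groups of independent, normally distributed values. These groups share the same libraries, and many genes were chosen by their values, so that rate cannot be set against the count. WT/cpd replicate 4 was the distant library for 5 genes: it had 2.68 CPM of CPD (4.14 to 4.47 in the other 4), 9.14 of BR6OX1 (5.29 to 6.15), 62.1 of BR6OX2 (34.1 to 38.6), 26.5 of AT4G23590 (9.98 to 11.6) and 2.87 of MRD1 (0.0345 to 0.447). CPD was thus lowest and the synthesis enzymes BR6OX1 and BR6OX2 highest in the same pool. DWF4 was also highest there (57.3 CPM), and DET2 equalled replicate 5 (23.7 CPM each). CYP90D1 (41.3 CPM) and ROT3 (52.1 CPM) lay within the range of the other WT/cpd libraries.

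In WT/cpd, SPX3 had 14.2 CPM in replicate 1 (0.3 to 0.967 in the others), CYP86A1 had 90.6 CPM in replicate 2 (111 to 119) and SS3 had 14.1 CPM in replicate 5 (17.1 to 18.1). In cpd/WT, RCI2B had 1560 CPM in replicate 3 (1810 to 1900) and PYL5 had 61.6 CPM in replicate 3 (47.8 to 50.8). Replicate 2 of cpd/WT had 1.51 CPM of HKT1 (8.36 to 10.5) and 11.6 CPM of ARR3 (7.15 to 7.82). FMO1 had 1.76 CPM in cpd/WT replicate 4 (0.452 to 0.496), and SPX3 had 0.621 CPM in cpd/WT replicate 5 (0.243 to 0.284).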

How the results depend on the processing

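The DESeq2 Wald test called 1439 genes, with 189 of the same and 177 of opposite signs in the whole grafts, and 929 of the 931 called genes were among them. Fitting the compared groups alone called 531, of which 484 were shared, with 162 of at least 1 on the log2 scale, 65 of the same sign and 39 of opposite signs. Leaving out each library in turn gave 618 to 1060 called genes, 180 to 356 of at least 1, 82 to 129 of the same sign, 54 to 87 of opposite signs and 39 to 58 list genes; the share higher in WT/cpd ran from 41.7% to 52.1%, beside 46.4%. The causes were not tested. The replicate numbers gave no pairing: deviations of same-numbered libraries correlated between -0.132 and 0.0322. With the replicate block 786 genes were called, 215 of at least 1, 86 of the same and 67 of opposite signs. Of 62 called named genes 31 lost their call in at least 1 of 19 alternatives, and 31 kept it in each that tested them (18 for MRD1, 19 for the others); none changed sign. Auxin response had 2 to 5 called genes, Casparian strip 2 to 4, suberin 6 to 8 and phosphate 2 to 6 with 1 library left out. The phosphate median, an alternative chosen after seeing the data, ran from 0.381 to 1.385. The brassinosteroid inactivation list had none without WT/cpd replicate 1 or 4.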

Other observations

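These gene families were picked after their values were seen and are given as values, with no test of the family. Over all tested genes 2.07% were called higher and 2.39% lower in WT/cpd. Of 53 tested genes that RefSeq names peroxidase superfamily protein, 16 fell in WT/cpd and 1 rose, with 12 to 16 falling when 1 library was left out; between the whole grafts 5 rose and 5 fell. AT5G64100 had 260 ± 27.5 CPM in WT/cpd and 467 ± 107 CPM in cpd/WT (adjusted p = 0.00057), and AT2G38390 had 173 ± 51.5 CPM in WT/cpd and 364 ± 53 CPM in cpd/WT (adjusted p = 0.0014). Of 16 laccases, copper enzymes that oxidise phenolics in the wall, 5 fell and 1 rose. LAC3, which acts at the Casparian strip, had 80.7 ± 7.3 CPM in WT/cpd and 189 ± 20.3 CPM in cpd/WT (adjusted p = 3.5e-05), with 160 CPM in cpd/cpd and 143 CPM in WT/WT.

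Of 10 tested NF-YA genes, which encode subunits of a CCAAT-binding transcription factor, 4 fell in WT/cpd and none rose. NF-YA6 had 6.26 ± 0.276 CPM in WT/cpd and 10.4 ± 1.01 CPM in cpd/WT (adjusted p = 4.3e-05), and NF-YA3 had 21.8 ± 4.82 CPM in WT/cpd and 38.7 ± 2.79 CPM in cpd/WT (adjusted p = 0.00084). Amino acid permeases went the other way: of 7 tested, AAP2, AAP4 and AAP6 rose in WT/cpd, and AAP2 had 426 ± 63.7 CPM in WT/cpd and 233 ± 63.6 CPM in cpd/WT (adjusted p = 0.0094). Of 15 genes annotated as GH3 family, 8 rose in WT/cpd, including PBS3, which does not act on auxin. Between the whole grafts 1 of the 15 rose and 3 fell. AT1G23160, a GH3 family gene without a symbol in the RefSeq table used here, had 4.94 ± 3.66 CPM in WT/cpd and 0.58 ± 0.262 CPM in cpd/WT (adjusted p = 0.0043). Unlike BRU6, it was higher with the cpd root in the whole grafts too, with 4.82 CPM in cpd/cpd and 1.01 CPM in WT/WT (adjusted p = 0.019).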
